A study of Homo sapiens with 16 samples.

Results

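The 48 h libraries of the PARP inhibition time course comprised MUTZ-3 cells kept with the solvent DMSO, with 10 µM olaparib or with 1 µM talazoparib, 1 library each. They are 3 of the 16 RNA-Seq samples of the series and were chosen by their treatment and time labels alone. MUTZ-3 is an established acute myeloid leukemia (AML) line with an inversion of chromosome 3, inv(3), which places a GATA2 enhancer next to the gene for EVI1, listed here as *MECOM*. All cells were grown with GM-CSF and medium conditioned by a bladder carcinoma line. The same time course holds DMSO, olaparib and talazoparib libraries at 12 h and 24 h and an untreated library at 0 h, so that 4 control libraries stand beside the treated ones. The doses of the inhibitors differ, every condition was sequenced once, and a single cell line was used. Ratios between single libraries have no replicate check, and intervals given with them cover counting error only.

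The enzyme PARP1 binds DNA breaks and marks proteins nearby with ADP-ribose chains, which helps to recruit repair factors. Olaparib and talazoparib block this activity and hold PARP enzymes on DNA, where they obstruct replication forks. Cells respond with checkpoint signaling and, where p53 functions, with transcription of p53 target genes that stop the cell cycle or trigger cell death. In myeloid leukemia, loss of progenitor programs such as the one maintained by EVI1 can be followed by expression of granule proteins, phagocyte receptors and chemokines of mature myeloid cells.

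Polyadenylated RNA was sequenced and reads were counted per gene. The 10 libraries of the time course held between 55999673 and 72681943 counted reads, and the 48 h libraries held 63705916 with DMSO, 60211563 with olaparib and 55999673 with talazoparib. Levels are given as CPM, the number of reads per gene scaled to a common library size, after TMM scaling, whose factors were 1.03, 0.913 and 0.866 at 48 h. Scaling to the plain library total would shift every log2 ratio by -0.17 with olaparib and by -0.25 with talazoparib. The myeloid identity of the line was present in the DMSO library: the receptors *CD33* and *ANPEP* stood at 89.1 and 599.6 CPM, the transcription factors *SPI1* and *CEBPA* at 192 and 58.1 CPM, and the progenitor genes *CD34* and *MECOM* at 419 and 61.7 CPM. The T cell genes *CD3G* and *CD2* stood at 0.122 and 0.640 CPM.

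A gene was called higher or lower where its CPM differed from DMSO by at least 1 log2 unit in the same direction with both inhibitors. A count of 10 or more in 2 of the 48 h libraries was required, which left 16367 of 60623 genes. Since 2 of the 3 libraries held an inhibitor, a gene with 10 counts in DMSO alone could not pass. A gene absent from DMSO could, so calls among genes with few reads can lean to higher. Of the 16367 genes kept, 1857 were called higher (11.3%) and 856 were called lower (5.23%). With library totals in place of TMM, the split was 1461 higher to 1354 lower. The genes called higher took 4.12% of all counts with DMSO, 10.9% with olaparib and 13.9% with talazoparib. Those called lower took 4.41%, 1.58% and 0.866%.

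For a test, edgeR's quasi-likelihood model was fitted to the 9 treated and DMSO libraries with olaparib and talazoparib as 2 replicates of PARP inhibition at each time. The lone DMSO libraries were thereby assumed to vary like the inhibitor libraries. The spread in this test is that between the compounds at their doses, not between repeats of a condition. At an adjusted p (Benjamini-Hochberg) under 0.05, 3120 genes were higher at 48 h (19.1%) and 2919 were lower (17.8%), with 7852 genes at an unadjusted p under 0.05. Of the genes called by the log2 limit, 1647 of the higher and 819 of the lower passed this test in the same direction. Since the test and the limit read the same libraries, the one is no independent check of the other. Library totals turned the split of the edgeR calls to 2240 higher and 4376 lower. Below, "rose" and "fell" are used for genes that passed the edgeR test.

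Both inhibitor libraries lay above all 4 control libraries (untreated and DMSO at 12, 24 and 48 h) for 4953 genes (30.3%) and below all of them for 4593 genes (28.1%). Among the genes called higher, 1684 of 1857 lay above all 4 controls, and 776 of the 856 called lower lay below them. DMSO at 48 h is among these controls, and every called gene lies beyond it by the rule of the call. For called genes, only the untreated library and DMSO at 12 h and 24 h could therefore fail the comparison. Low counts stood behind some calls. DMSO held under 10 counts for 435 of the genes called higher, and 18 of these had 0 counts. At least one inhibitor library held under 10 counts for 94 of the genes called lower.

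**Figure D1:**
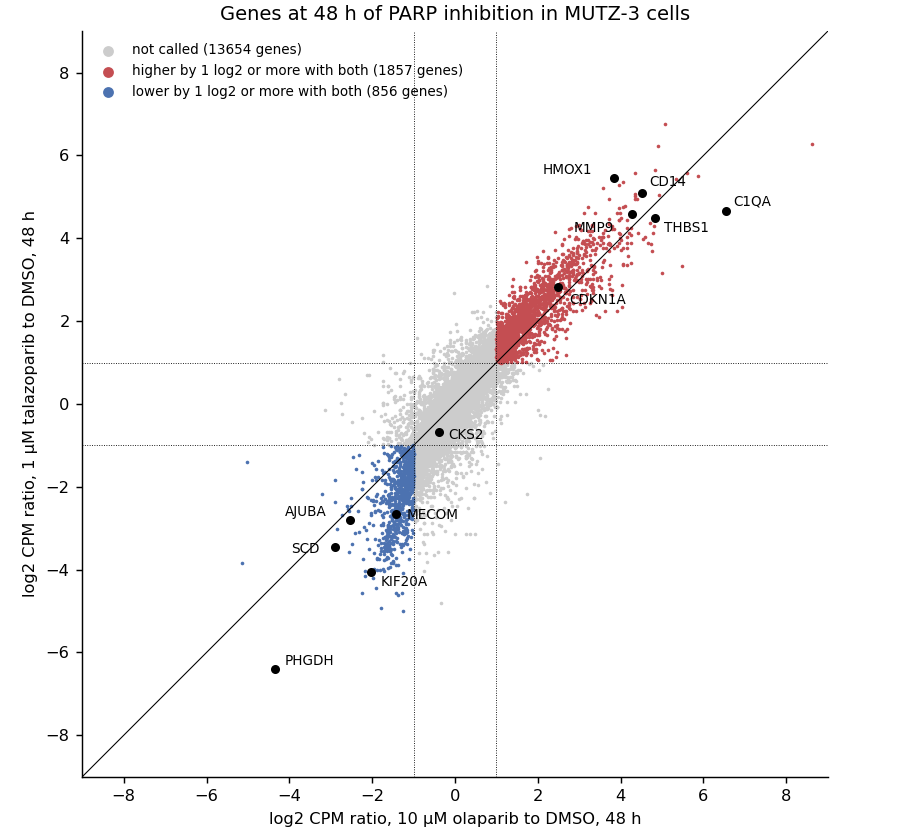
Log2 CPM ratio to DMSO at 48 h with olaparib (x axis) and with talazoparib (y axis), 1 point per gene tested; colored points differ by at least 1 log2 unit in the same direction with both. The 1857 genes called higher lie in the upper right and the 856 called lower in the lower left, and both axes share the same denominator library; black points are named genes.

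The genes with the largest shift upward, among those of at least 10 CPM on average, included several of mature phagocytes. Values given as 3 CPM figures are in the order DMSO, olaparib and talazoparib at 48 h. *CD14*, the co-receptor for bacterial lipopolysaccharide on monocytes (GRCh38 chromosome 5, 140631728 to 140633701, minus strand), stood at 2.77 CPM with DMSO, 63.9 CPM with olaparib and 94.9 CPM with talazoparib. Its log2 ratios were 4.53 with olaparib (95% counting interval 4.31 to 4.75) and 5.10 with talazoparib (4.88 to 5.32). *CD14* rose by edgeR, with a log2 fold change of 4.84 ± 0.32 (SE) and an adjusted p of 0.000323. The earlier controls had 6.46 CPM untreated and 8.21 and 5.38 CPM with DMSO at 12 h and 24 h, all below both treated libraries. *MMP9*, the gelatinase of neutrophil granules, stood at 3.21, 61.7 and 77.8 CPM and also rose (adjusted p = 0.000323). *ACP5*, the tartrate-resistant acid phosphatase of macrophages and osteoclasts, had 3.12, 53.3 and 86.4 CPM (adjusted p = 0.000479) and overlaps *ZNF627*. *LILRA5*, an activating immunoglobulin-like receptor of monocytes, had 2.91, 41.9 and 54.0 CPM (adjusted p = 0.000384). For these genes both inhibitor libraries lay above all 4 controls.

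The other genes at the head of this order have mixed roles. *THBS1*, which encodes the matrix glycoprotein thrombospondin, stood at 13.4, 382 and 303 CPM, and *NUPR1*, a small stress-induced chromatin protein, at 1.43, 22.5 and 23.0 CPM. *HMOX1*, the inducible heme oxygenase, had 2.19, 31.6 and 96.7 CPM, log2 ratios of 3.85 and 5.46. The untreated library held 31.9 CPM of *HMOX1*, so the olaparib level did not exceed all controls. *FPR1*, the formyl peptide receptor that guides neutrophils to bacteria, had 3.02, 53.9 and 57.7 CPM. It overlaps the related gene *FPR2* on the opposite strand, which had 3554, 14266 and 16415 counts, and the strand setting of the counting is not given in the sources used here. The same limit applies to *RN7SL1*, a multi-copy RNA of the signal recognition particle that overlaps *RPS29* on the opposite strand. *AL365357.1* lies within *RASAL2* on the same strand, so strand cannot separate their reads. It had 2.30, 42.5 and 40.5 CPM at 48 h but 21 CPM with DMSO at 24 h. *FPR1*, *AL365357.1* and *RN7SL1* are therefore uncertain.

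Monocyte and macrophage markers were higher in nearly all cases. Of the 29 of 37 listed markers that passed the count filter, 25 were called higher and 0 lower, 86.2% against 11.3% of all genes. The medians of 2.37 with olaparib and 2.58 with talazoparib compare with 0.0030 and 0.0027 over all genes. By edgeR, 27 rose and 0 fell. *C1QA*, a subunit of the complement initiator C1q, had the largest shift, from 14 counts with DMSO to 1093 with olaparib and 260 with talazoparib. The lowest ratios belonged to *CSF1R*, the receptor for macrophage colony-stimulating factor, at 234, 177 and 182 CPM, and *MRC1*, the mannose receptor, at 282, 237 and 243 CPM. Both stood below DMSO with each inhibitor, and neither passed the edgeR test (adjusted p = 0.0890 and 0.406). DMSO at 24 h held 109.6 CPM of *MRC1*, and against that library its log2 ratios were 1.11 and 1.15.

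Granule genes are given by granule type. Of the 17 of 25 genes for secondary and tertiary granule proteins that passed the filter, 16 were called higher (94.1% against 11.3% of all genes). The same number rose by edgeR, and the medians were 2.12 with olaparib and 2.72 with talazoparib. Beside *MMP9*, the largest ratio was that of *CEACAM1*, an adhesion receptor, with 8, 107 and 133 counts. The smallest was that of *SLPI*, an inhibitor of neutrophil elastase, at 7.43, 9.22 and 14.2 CPM (adjusted p = 0.105). Primary granule genes, which are transcribed earlier, in promyelocytes, gave 4 calls higher and 1 lower among 12. These are 33.3% and 8.33%, against 11.3% and 5.23% of all genes. *MPO*, the myeloperoxidase that makes hypochlorous acid, was the gene called lower, at 2453, 993 and 592 CPM (edgeR -1.63 ± 0.26, adjusted p = 0.00343). *ELANE*, neutrophil elastase, fell as well, from 8.23 to 5.77 and 3.51 CPM (adjusted p = 0.0463). *PRSS57*, a serine protease of the same granules, had 0.990, 3.48 and 5.22 CPM, and *BPI*, which permeabilizes bacterial membranes, had 50.9, 129.7 and 199 CPM. Both rose.

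The phagocyte oxidase and receptors for microbial products also shifted upward. Of 7 NADPH oxidase genes, 4 were called higher (57.1% against 11.3% of all genes) and 6 rose by edgeR. The medians were 1.03 with olaparib and 1.52 with talazoparib. With library totals, 2 were called higher. *CYBB*, the catalytic subunit, had 228, 769 and 1071 CPM, while the small GTPase *RAC1* was level at 287, 279 and 306 CPM. *NCF1*, a cytosolic subunit, had 44.5, 267 and 457 CPM, but it shares reads with the near-identical copies *NCF1B* and *NCF1C*. Among 18 pattern recognition receptors, 9 were called higher (50% against 11.3% of all genes) and 11 rose. The extremes of this list were *TLR8*, a sensor of single-stranded RNA, at 0.716, 6.11 and 7.59 CPM, and *NOD1*, a cytosolic sensor of peptidoglycan, at 14.7, 12.8 and 17.2 CPM. *LY96*, the partner of TLR4 in binding lipopolysaccharide, had 1.22, 8.73 and 13.2 CPM.

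Receptors of the LILR and Siglec families were called higher for 15 of 19 genes and lower for 1. These are 78.9% and 5.26%, against 11.3% and 5.23% of all genes. The medians were 2.04 with olaparib and 2.72 with talazoparib, and 18 rose by edgeR. *LILRB1*, which binds MHC class I, had 1, 17 and 24 counts. Its log2 ratio with olaparib of 4.34 carried a counting interval of 1.67 to 9.73, and that with talazoparib of 5.02 one of 2.41 to 10.38. *SIGLEC15*, an osteoclast receptor, fell, from 22.8 to 10.3 and 8.11 CPM (adjusted p = 0.00276), but DMSO at 24 h held 11.9 CPM, and the ratios to that library were -0.21 and -0.55 log2. *CD33*, the myeloid Siglec, had 89.1, 129.8 and 161 CPM.

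Of the 30 of 43 listed chemokines and cytokines that passed the filter, 21 were called higher (70% against 11.3% of all genes) and 0 lower. The medians were 2.38 with olaparib and 2.33 with talazoparib. By edgeR, 26 rose and 1 fell. *CCL17*, which attracts T helper cells, had 0 counts with DMSO, 80 with olaparib and 20 with talazoparib. Against a floor of 3 counts in the DMSO library, it was at least 31.9-fold higher with olaparib and at least 9.03-fold higher with talazoparib. *IL32*, an inflammatory cytokine of monocytes, had 16.7, 223 and 170.2 CPM. The gene that fell was *VEGFA*, the endothelial growth factor, at 21.2, 9.28 and 11.7 CPM. DMSO at 24 h held 10.0 CPM of *VEGFA*, and against it the log2 ratios were -0.11 and 0.22. Both inhibitor libraries lay above all 4 controls for 19 of the 30 genes.

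Transcription factors of myeloid fate gave 12 calls higher and 0 lower among 20, 60% higher against 11.3% of all genes. The medians were 1.1 with olaparib and 1.58 with talazoparib, and 15 rose and 1 fell by edgeR. *ID2*, an inhibitor of E proteins that dendritic cells need, rose from 18.4 to 165 and 233 CPM (adjusted p = 0.000665). The factor that fell was *GFI1*, a repressor required for granulocytes, at 164, 111 and 105 CPM. *SPI1* (PU.1), the main regulator of the myeloid lineage, had 192, 333 and 449 CPM and rose (adjusted p = 0.00606). Lysosomal genes gave 14 calls higher and 0 lower among 40, 35% higher against 11.3% of all genes, and 31 rose. *TFEB*, the factor that controls many of them, had 9.05, 31.4 and 43.7 CPM, and *GUSB*, the lysosomal β-glucuronidase, had the lowest ratios, at 97.3, 89.4 and 83.9 CPM.

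Dendritic and Langerhans cell markers were called higher for 15 of 20 genes (75% against 11.3% of all genes). The medians were 2.65 with olaparib and 1.82 with talazoparib. MUTZ-3 is known for its capacity to form such cells under cytokines. *CD1B*, which presents lipid antigens, had 9, 123 and 49 counts. *FCER1A*, a chain of the IgE receptor, had 4, 60 and 64 counts. The lowest ratios were those of *BATF3*, a factor of cross-presenting dendritic cells, at 2.27, 1.33 and 1.26 CPM, although against DMSO at 24 h its log2 ratios were 1.21 and 1.13. MHC class II genes were mixed, with 3 called higher and 1 lower among 16, and with 8 higher against DMSO at 24 h. The shares at 48 h were 18.75% and 6.25%, against 11.3% and 5.23% of all genes. *HLA-DQA1*, an antigen-presenting chain, had 14.5, 62.5 and 104 CPM, and *RFXAP*, a subunit of the factor that binds class II promoters, had 5.42, 1.93 and 1.40 CPM. HLA genes are highly alike and variable, so their counts are uncertain.

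**Figure D2:**
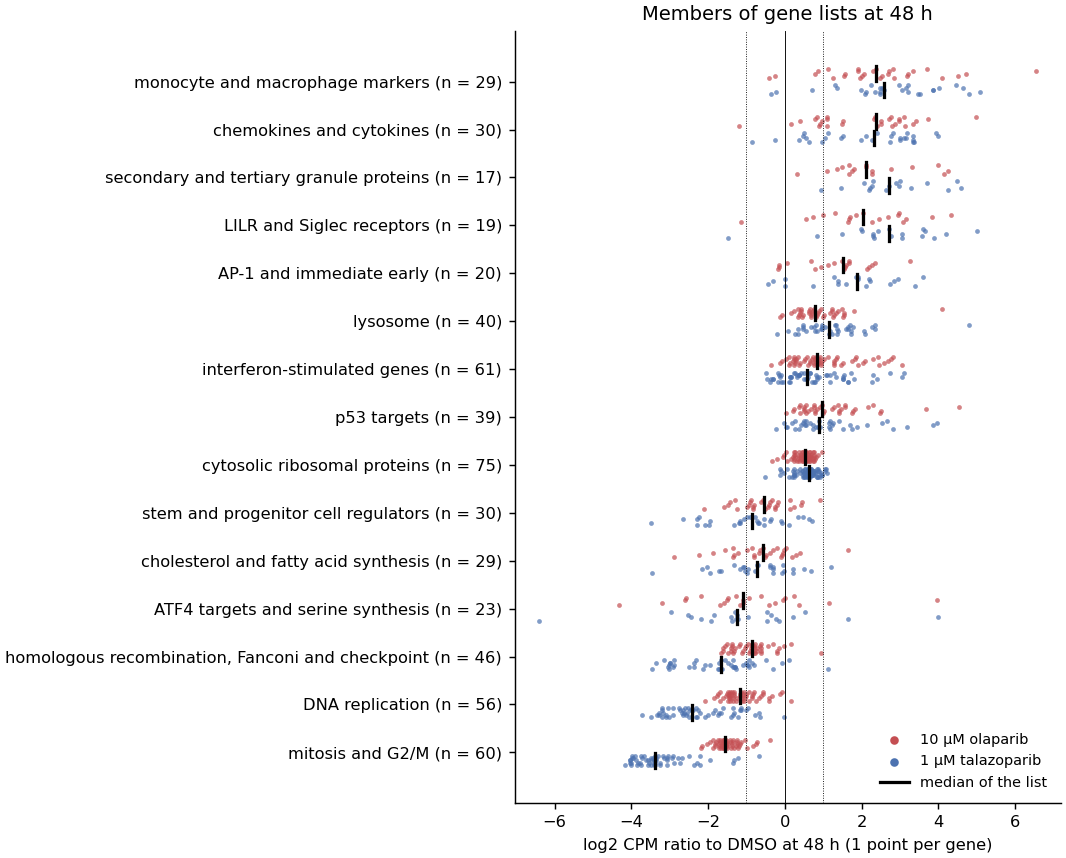
Log2 CPM ratio to DMSO at 48 h (x axis) for the tested genes of 15 gene lists, 1 point per gene, with olaparib in red and talazoparib in blue and a black bar at each median. The medians of the monocyte and macrophage, secondary granule, chemokine and LILR lists lie above 2 with both inhibitors, and those of the mitosis list lie lowest at -1.56 and -3.39.

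Genes of cell division were lower throughout. Of 60 genes for mitosis and the G2/M transition, 55 were called lower and 0 higher, 91.7% against 5.23% of all genes, and 59 fell by edgeR. The list had medians of -1.56 with olaparib and -3.39 with talazoparib, and both ratios were below 0 for every one of its genes. *KIF20A*, a kinesin of the cleavage furrow, stood at 69.9, 17.3 and 4.23 CPM (edgeR -2.70 ± 0.65, adjusted p = 0.0138). *ASPM*, a spindle pole protein, had 39.2, 10.1 and 2.47 CPM. *KIF14*, a kinesin of cytokinesis, had 22.8, 5.02 and 1.28 CPM. The smallest shift belonged to *CKS2*, a CDK subunit, at 136, 105 and 84.9 CPM (adjusted p = 0.0591). *MKI67*, the proliferation marker Ki-67, had 186, 59.8 and 19.7 CPM. *KIF20A* overlaps *CDC23* and *BRD8* on the opposite strand, which had 3480, 2069 and 1626 counts and 5771, 4139 and 3271 counts, and the share of reads from each gene could not be separated.

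Promoter sequences are shown for division genes that carried the shift, since many such genes share the NF-Y motif CCAAT and the cell cycle homology region (CHR) TTTGAA. The genes printed have the lowest mean ratios of the mitosis list among those whose promoter held a match. They were thus chosen for holding a motif, and *CENPE*, lower than *KIF20A* and *ASPM* by mean ratio, was passed over. The sequences are the 250 bases before the first start listed per gene in RefSeq (GRCh38.p14), 5′ to 3′ on the gene's strand, with motif matches on either strand in capitals. *KIF14* lies at chr1:200620752-200621001, minus strand, *KIF20A* at chr5:138178862-138179111, plus strand and *ASPM* at chr1:197146670-197146919, minus strand.
KIF14: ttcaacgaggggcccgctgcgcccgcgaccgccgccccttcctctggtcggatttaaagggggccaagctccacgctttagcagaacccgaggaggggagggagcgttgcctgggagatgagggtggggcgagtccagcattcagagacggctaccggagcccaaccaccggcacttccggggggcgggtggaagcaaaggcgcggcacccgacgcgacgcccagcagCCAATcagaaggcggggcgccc
KIF20A: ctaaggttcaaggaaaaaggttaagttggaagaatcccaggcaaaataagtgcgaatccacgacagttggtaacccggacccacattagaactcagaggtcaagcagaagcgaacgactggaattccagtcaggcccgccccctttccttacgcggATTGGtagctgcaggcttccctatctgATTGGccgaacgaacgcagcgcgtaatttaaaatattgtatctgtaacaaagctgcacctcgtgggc
ASPM: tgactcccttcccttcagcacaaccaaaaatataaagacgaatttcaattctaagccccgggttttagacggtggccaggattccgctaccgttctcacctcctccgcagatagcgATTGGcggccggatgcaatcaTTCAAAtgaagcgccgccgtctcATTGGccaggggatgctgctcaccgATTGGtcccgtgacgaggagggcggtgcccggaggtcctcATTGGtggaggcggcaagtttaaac
Of the 55 mitosis genes called lower, 49 had a promoter in the table. CCAAT or its complement was found in 75.5% of them and TTTGAA or its complement in 46.9%, and 40.8% held both. The shares among all 27305 promoters in the table were 33.0%, 13.6% and 4.85%, and among the 10978 tested genes with a promoter 35.2%, 8.72% and 3.57%. Matches to both motifs may share letters at their ends, and a match is a description of the sequence only. Only 1074 of the 1857 genes called higher and 594 of the 856 called lower had a promoter in the table, under 80%, so a comparison of motif shares over all called genes was void.

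DNA replication genes were called lower for 39 of 56 (69.6% against 5.23% of all genes) and higher for 0. The medians were -1.18 with olaparib and -2.41 with talazoparib, and 52 fell by edgeR. *E2F8*, a late S-phase repressor of E2F targets, had 14, 3.31 and 1.24 CPM. *MCM10*, which helps to fire replication origins, had 51.5, 16.7 and 3.92 CPM. At the other end stood *RPA2*, a subunit of the complex that coats single-stranded DNA, at 157, 176 and 155 CPM. Homologous recombination, Fanconi and checkpoint genes were called lower for 19 of 46 (41.3% against 5.23% of all genes). Their medians were -0.86 with olaparib and -1.65 with talazoparib, and 39 fell by edgeR. *BRIP1*, the helicase partner of BRCA1, had 22.0, 6.99 and 2.0 CPM. *CHEK1*, the kinase that restrains replication under stress, had 69.9, 23.9 and 6.83 CPM. The gene of this list that rose was *SLX4*, a scaffold of DNA nucleases, at 20.5, 39.0 and 44.9 CPM (adjusted p = 0.00355). *ATM*, the kinase activated by double-strand breaks, had 26.2, 29 and 28.2 CPM and did not pass the test (adjusted p = 0.547).

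Targets of p53 moved the other way. Of 39 tested, 17 were called higher and 0 lower, 43.6% higher against 11.3% of all genes. The medians were 0.96 with olaparib and 0.88 with talazoparib. By edgeR, 29 rose, as did 19.1% of all genes. With library totals, 12 were called higher, and against DMSO at 24 h 13. *CDKN1A*, the p21 inhibitor of cyclin-dependent kinases, stood at 104, 588 and 737 CPM (edgeR 2.66 ± 0.23, adjusted p = 0.000580). *GDF15*, a secreted stress cytokine, had the largest ratios of the list, at 0.350, 8.17 and 5.51 CPM. The smallest were those of *CCNG1*, a cyclin under direct p53 control, at 418, 429.8 and 359 CPM (adjusted p = 0.722).

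CDK inhibitors and G1 cyclins gave 2 calls higher and 3 lower among 16, 12.5% and 18.8% against 11.3% and 5.23% of all genes. Beside *CDKN1A*, the gene called higher was *CDKN1C*, the p57 inhibitor, at 2.53, 7.59 and 7.14 CPM. *RBL1*, the p107 pocket protein, had 31.3, 11.9 and 7.26 CPM. In the BCL2 family, 2 of 14 (14.3%) were called higher and 0 lower, which is near the share of all genes. They were *BCL2A1*, a survival protein of mature myeloid cells, at 30.5, 157 and 181 CPM, and *BIK*, a pro-apoptotic member, at 0.487, 1.89 and 1.22 CPM. Of the 16 listed genes, *BOK* (19, 2 and 1 counts) and *HRK* (0 in each library) did not pass the count filter. *BCL2* itself had 37.7, 21 and 17.9 CPM and fell (adjusted p = 0.00682).

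*MECOM*, the oncogene under the relocated enhancer (GRCh38 chromosome 3, 169083499 to 169663775, minus strand), stood at 61.7 CPM with DMSO, 23.1 CPM with olaparib and 9.86 CPM with talazoparib. These are log2 ratios of -1.42 (-1.51 to -1.33) and -2.65 (-2.79 to -2.51), and *MECOM* fell by edgeR (adjusted p = 0.00640). The earlier controls held 28.6 CPM untreated and 49.3 and 49.4 CPM with DMSO at 12 h and 24 h, all above both inhibitor libraries at 48 h. Of 30 stem and progenitor regulators, 6 were called lower (20% against 5.23% of all genes) and 0 higher. Their medians were -0.54 with olaparib and -0.84 with talazoparib, and 16 fell and 2 rose by edgeR. Library totals gave 11 called lower, and DMSO at 24 h as the denominator gave 4. The list held 32 genes, and *FLT3* (11, 1 and 0 counts) and *PRDM16* (1, 2 and 3) did not pass the count filter. *CD34*, the progenitor surface marker, had 419, 151 and 109 CPM. *ERG*, a transcription factor of hematopoietic stem cells, had 32.8, 10.9 and 2.93 CPM. *HLF*, another stem cell factor, had 6.09, 1.42 and 1.26 CPM, and *HOXB2*, a homeobox gene, had 4.80, 1.95 and 1.01 CPM. These genes fell, whereas *LMO2*, a bridging factor of stem cell circuits, rose from 55.5 to 74.4 and 90.6 CPM (adjusted p = 0.0272). In bulk RNA, fewer cells of a type and less RNA per cell cannot be told apart.

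*PARP1*, which encodes the main target of both inhibitors, had 321, 182 and 137 CPM and fell (adjusted p = 0.00631). Within the PARP family, its hydrolase PARG and related genes, 0 of 20 were called higher and 2 lower, 1 rose and 5 fell. The share called lower was 10% against 5.23% of all genes. *PARP2*, the second DNA-dependent enzyme, had 22.9, 10.6 and 6.04 CPM. *SLFN11*, a helicase-like protein that blocks stressed replication forks, had 53.3, 28.5 and 16.1 CPM. The gene that rose was *PARP10*, a mono-ADP-ribosyltransferase, at 45.9, 84.8 and 102 CPM, which overlaps *GRINA* on the opposite strand.

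Metabolic genes included the deepest falls. *PHGDH*, the first enzyme of serine synthesis, stood at 193 CPM with DMSO, 9.55 CPM with olaparib and 2.29 CPM with talazoparib, log2 ratios of -4.33 and -6.40 (edgeR -5.01 ± 0.57, adjusted p = 0.00101). *SCD*, the desaturase that makes monounsaturated fatty acids, had 199, 26.7 and 18.1 CPM. *GPT2*, a mitochondrial alanine transaminase, had 29.8, 6.51 and 3.79 CPM. For these genes both inhibitor libraries lay below all 4 controls. *BCAT1*, which transaminates branched-chain amino acids, had 112, 25.2 and 13.7 CPM and also lay below them. Promoter sequences are printed for *PHGDH* (chr1:119711684-119711933, plus strand) and *SCD* (chr10:100346983-100347232, plus strand), the genes with the largest falls, with CCAAT in capitals.
PHGDH: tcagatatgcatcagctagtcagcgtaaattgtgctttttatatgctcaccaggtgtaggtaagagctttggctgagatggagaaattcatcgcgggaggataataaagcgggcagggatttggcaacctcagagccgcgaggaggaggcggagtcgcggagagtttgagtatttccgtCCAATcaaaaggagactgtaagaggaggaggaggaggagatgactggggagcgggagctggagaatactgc
SCD: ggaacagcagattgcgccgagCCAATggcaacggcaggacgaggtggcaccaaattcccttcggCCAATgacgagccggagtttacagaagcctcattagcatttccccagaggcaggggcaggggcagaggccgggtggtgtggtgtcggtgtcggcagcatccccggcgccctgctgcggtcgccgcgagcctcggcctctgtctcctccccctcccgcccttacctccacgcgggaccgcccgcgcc
Other genes among the 10 with the largest falls were *AJUBA*, a LIM-domain scaffold, at 32.2, 5.55 and 4.62 CPM, and *CDCA7*, a cell cycle gene under MYC and E2F, at 141, 38.2 and 10.6 CPM. DMSO at 24 h held 7.81 CPM of *AJUBA*, and against that library its log2 ratios were -0.49 and -0.76, under the limit. *ENC1*, an actin-binding protein, had 74.7, 18.4 and 12.1 CPM, and its counts are uncertain. *SNHG4*, a small nucleolar RNA host gene, had 41.2, 10.2 and 6.41 CPM and overlaps *SIL1*.

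Of 23 ATF4 targets and serine synthesis genes, 12 were called lower and 2 higher. These are 52.2% and 8.70%, against 5.23% and 11.3% of all genes. The medians were -1.08 with olaparib and -1.26 with talazoparib, and edgeR gave 16 genes that fell and 2 that rose. DMSO itself stood at least 1 log2 higher at 48 h than at 24 h for 12 of them, with a median shift of 1.01. Against DMSO at 24 h, 3 were lower and 4 higher by at least 1 log2 with both inhibitors. *VLDLR*, a lipoprotein receptor, had 1.68, 0.182 and 0.371 CPM at 48 h but 0.187 CPM with DMSO at 24 h. The members called higher were *NUPR1* and *CEBPB*, the latter a factor of macrophage activation, at 18.6, 41.2 and 58.8 CPM. The list held 27 genes, and some did not pass the count filter. These were *ASNS* (153, 7 and 4 counts), *CBS* (37, 5 and 3), *PSAT1* (1, 0 and 0) and *ALDH1L2* (2, 1 and 0).

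Cholesterol and fatty acid synthesis gave 8 calls lower (27.6% against 5.23% of all genes) and 1 higher (3.45% against 11.3%) among 29. The medians were -0.58 with olaparib and -0.74 with talazoparib, and 5 genes were lower against DMSO at 24 h. *INSIG1*, which retains the sterol sensor in the endoplasmic reticulum, was the gene called higher, at 105, 327 and 243 CPM. *FADS2*, a fatty acid desaturase, had 208, 56.8 and 46.4 CPM, and it overlaps *FEN1* on the same strand and *FADS1* on the other. Glycolysis and hypoxia genes gave 3 calls higher and 0 lower among 28, 10.7% higher against 11.3% of all genes. With library totals, 3 were called lower. *HK3*, a hexokinase of myeloid cells, had 12.6, 53.7 and 103 CPM, and *LDHA*, a lactate dehydrogenase subunit, had 1416, 724 and 536 CPM.

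Cytosolic ribosomal proteins gave 0 calls higher and 0 lower among 75, but their medians were 0.52 and 0.62, and 42 rose by edgeR. Library totals shift these medians by -0.17 and -0.25. *RPS19*, a subunit needed for 40S maturation, had 1956, 3843 and 4135 CPM. Ribosome biogenesis and MYC genes gave 2 calls higher and 2 lower among 36, 5.56% lower against 5.23% of all genes, and 3 rose and 20 fell by edgeR. The genes called higher were *MXD1*, at 39.1, 179 and 240.3 CPM, and *MXD4*, at 26.8, 81.6 and 119 CPM, both antagonists of MYC. Library totals gave 4 called lower, and DMSO at 24 h as the denominator 8. *UTP20*, a ribosome assembly factor, had 42.5, 14.4 and 6.58 CPM. Neither the 52 nuclear respiratory chain subunits nor the 13 mitochondrially encoded genes gave a call.

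Interferon-stimulated genes were called higher for 19 of 61 (31.1% against 11.3% of all genes) and lower for 0. The medians were 0.83 with olaparib and 0.59 with talazoparib, and 28 rose by edgeR. *IFI27*, an interferon-induced mitochondrial protein, had 13.7, 96.2 and 117 CPM. *SIGLEC1*, a sialic acid receptor of macrophages that interferon induces, had 15.9, 102 and 133 CPM. At the other end, *IFITM2*, a membrane antiviral protein, had 499, 387 and 384 CPM. DMSO itself stood at least 1 log2 higher at 48 h than at 24 h for 25 of these genes, with a median shift of 0.93. Against DMSO at 24 h, 43 were higher by at least 1 log2 with both inhibitors.

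Replication-dependent histone genes gave 10 calls higher and 2 lower among the 18 of 33 that passed the filter. These are 55.6% and 11.1%, against 11.3% and 5.23% of all genes. Most of their transcripts lack the poly(A) tails that the library kit selects. The split is partly set by the filter, which favors genes with reads under the inhibitors. Among the genes it removed, *HIST1H3F* had 16, 6 and 2 counts, *HIST1H4C* 12, 3 and 2, and *HIST1H2BF* 3, 11 and 5. *HIST1H2AC* had 7.49, 40.8 and 61.4 CPM and *HIST1H2BH* had 1.69, 0.782 and 0.433 CPM. AP-1 and immediate early genes were called higher for 13 of 20 (65% against 11.3% of all genes). The medians were 1.51 with olaparib and 1.88 with talazoparib, but both inhibitor libraries lay above all 4 controls for 4 of the 20. *NR4A3*, an orphan nuclear receptor, had 11, 88 and 98 counts and 8.60 CPM in the untreated library, against 1.60 and 2.02 CPM with the inhibitors. *JUND*, a constitutive AP-1 subunit, had 65.1, 58.6 and 52.9 CPM. Keratin and epithelial genes gave 4 calls higher among 8 (50% against 11.3% of all genes). *KRT16* stood at 83.2, 651 and 729 CPM and *KRT17* at 143, 891 and 995 CPM.

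Markers of other blood lineages were examined against the 11.3% higher and 5.23% lower over all genes. Mast cell, basophil and eosinophil genes were called higher for 8 of 10 (80.0%), with a summed level of 1007, 4291 and 6167 CPM. *CCR3*, the eotaxin receptor, had 1.11, 8.04 and 10.1 CPM, but it overlaps *CCR1* on the opposite strand, with 1369, 4544 and 4451 counts. T and NK cell genes gave 4 calls higher among 10 (40.0%), with summed levels of 202, 272 and 323 CPM. The defining T cell genes had few reads, with 8, 25 and 22 counts for *CD3G* and 42, 102 and 110 counts for *CD2*. Megakaryocyte and platelet genes gave 4 calls higher among 11 (36.4%). Erythroid genes gave 3 higher and 1 lower among the 5 of 16 that passed, with *TFRC*, the transferrin receptor of dividing and erythroid cells, at 336, 124 and 52.2 CPM. With library totals, 1 erythroid gene was called higher. Early B lineage genes gave 1 higher and 1 lower among 7, 14.3% each, and 0 rose by edgeR. The part of any other cell type in these levels was not tested.

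The shifts grew with time of exposure. At 12 h, 263 genes were at least 1 log2 higher and 56 lower with both inhibitors, and at 24 h these numbers were 790 and 106. Of the genes called at 48 h, 144 higher and 3 lower had passed the same limit at 12 h, and 570 higher and 38 lower at 24 h. The genes called higher at 48 h had medians of 0.26 and 0.32 at 12 h, 0.74 and 1.04 at 24 h, and 1.65 and 2.02 at 48 h, the last fixed by the limit itself. Those called lower had -0.17 and -0.17, -0.44 and -0.71, and -1.27 and -2.05. The 3 times use different DMSO libraries as denominators.

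The difference between the effect at 48 h and the mean effect at 12 h and 24 h was tested as an interaction in the same edgeR model. It was positive at an adjusted p under 0.05 for 211 genes (1.29%) and negative for 76 (0.464%), and 4250 genes had an unadjusted p under 0.05. Of the genes that passed, 207 positive and 68 negative ones were among those called at 48 h in the same direction. The interaction and the calls read the same 48 h libraries, so this overlap is no independent check. These counts were unsteady: with DESeq2 they were 954 and 626, with library totals 167 and 166, and without the talazoparib library at 48 h 593 and 583. Monocyte and macrophage markers held 13 positive genes, secondary and tertiary granule proteins 5, chemokines and cytokines 6, lysosomal genes 6, and p53 targets 0. The mitosis list held 0 negative genes, and the ATF4 list 13.

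*CD14* had log2 ratios of 0.70 and 0.38 at 12 h, 2.20 and 2.27 at 24 h, and 4.53 and 5.10 at 48 h (olaparib first), with an interaction of 3.45 ± 0.33 (SE), adjusted p = 0.00917. *CDKN1A* was already higher at 12 h, at 1.34 and 1.65, and stood at 1.44 and 1.64 at 24 h. At 48 h it stood at 2.49 and 2.82, with an interaction of 1.14 ± 0.25, adjusted p = 0.0562. Its level with DMSO was 221, 196 and 104 CPM at 12 h, 24 h and 48 h. With olaparib it was 562, 533 and 588 CPM, and with talazoparib 692, 610 and 737 CPM. Against DMSO at 24 h, the 48 h ratios of *CDKN1A* were 1.58 and 1.91. The p53 list had medians of 0.73 and 0.87 at 12 h, where 12 genes were at least 1 log2 higher with both, against 17 at 48 h. With DMSO at 24 h as the denominator, the number at 48 h was 13. Monocyte and macrophage markers had 0 genes at least 1 log2 higher with both at 12 h, 19 at 24 h and 25 at 48 h. Medians of the mitosis list went from -0.28 and -0.54 at 12 h to -1.56 and -3.39 at 48 h. Such a gap between the compounds widens the spread that the interaction test uses. *KIF20A* had -0.48 and -0.73 at 12 h and -1.01 and -2.30 at 24 h, and its interaction of -1.64 ± 0.82 did not pass (adjusted p = 0.238).

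**Figure D3:**
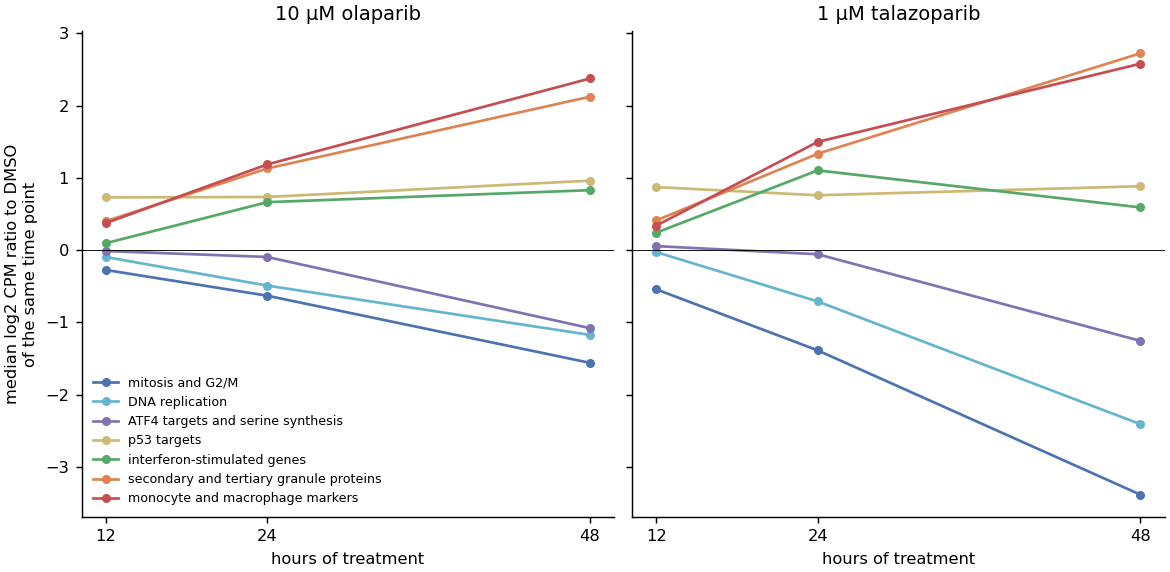
Median log2 ratio to the DMSO library of the same time over the genes of selected lists, at 12 h, 24 h and 48 h (x axis), for olaparib and talazoparib. The monocyte and macrophage list goes from 0.37 and 0.34 at 12 h to 2.37 and 2.58 at 48 h, while the p53 list stands at 0.73 and 0.87 at 12 h and 0.96 and 0.88 at 48 h.

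**Figure D4:**
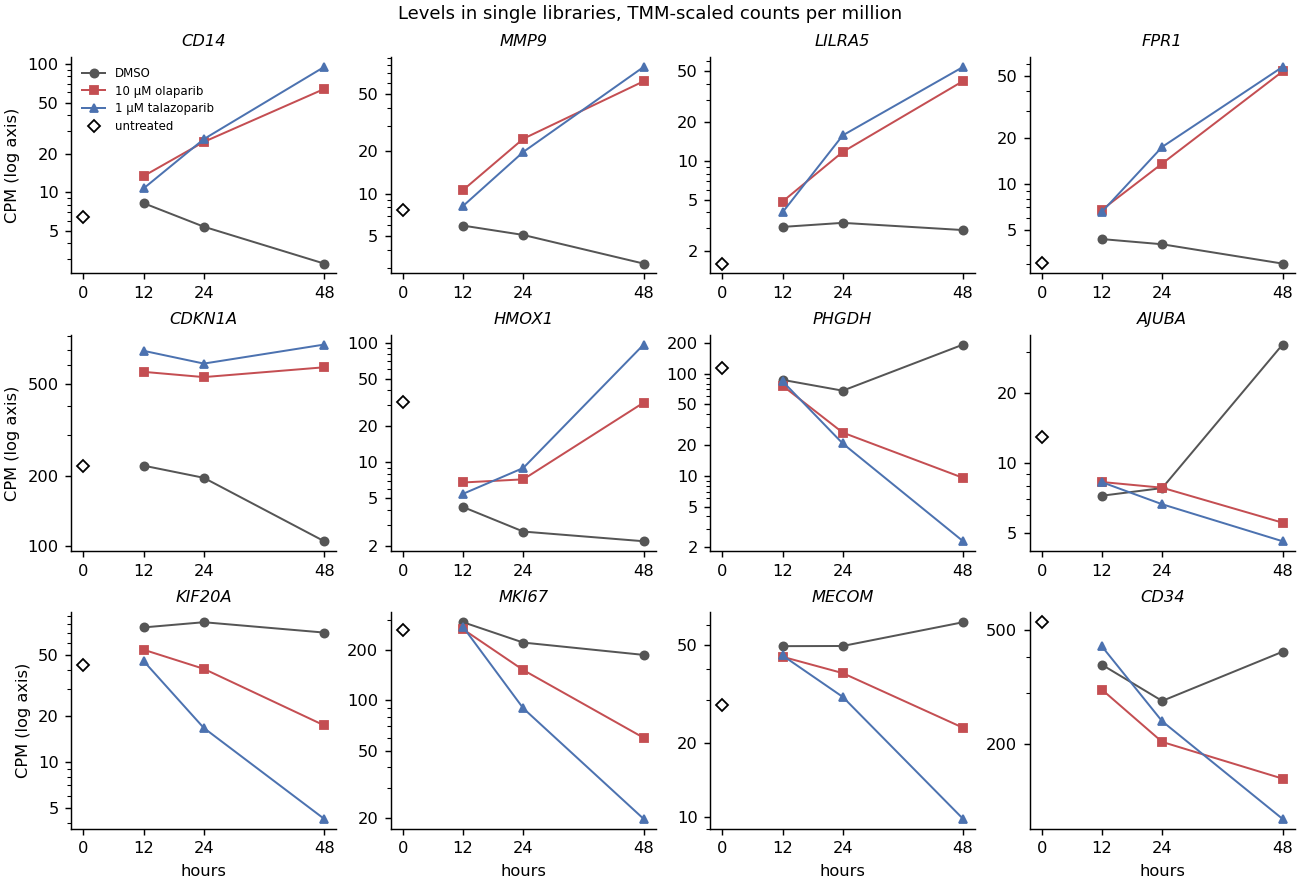
CPM of selected genes in each of the 10 libraries on a log axis, 1 point per library with lines joining the times of a treatment, without error bars because each condition has 1 library. CD14 stands at 2.77 CPM with DMSO at 48 h against 63.9 and 94.9 CPM with the inhibitors, and MECOM at 61.7 against 23.1 and 9.86 CPM.

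The DMSO cells themselves moved between 24 h and 48 h. Of the 16367 genes, 692 were at least 1 log2 higher at 48 h (4.23%) and 238 were lower (1.45%), together 5.68%, and the median absolute shift was 0.24 log2. Between 12 h and 24 h, 370 were higher and 266 lower. With 1 DMSO library per time, none of these shifts was tested. Of the 692 genes higher in DMSO at 48 h, 131 were called higher and 66 lower with the inhibitors. Of the 238 lower ones, 150 were called higher and 4 lower. Over all genes tested, 11.3% were called higher and 5.23% lower. A gene that moves in DMSO at 48 h moves its inhibitor ratio the opposite way, since the same library is the denominator.

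The DMSO genes at the head of this order with at least 10 CPM included interferon-stimulated and stress genes. *IFI44L* stood at 4.31 CPM with DMSO at 24 h and 24.6 CPM at 48 h, with 92.4 and 76.8 CPM with olaparib and talazoparib. *SLC7A11*, the cystine importer, went from 5.51 to 24.6 CPM in DMSO, with 16.2 and 18.0 CPM under the inhibitors. *STC2*, a secreted glycoprotein under ATF4, went from 4.71 to 19.0 CPM, with 3.17 and 3.28 CPM. *ID1* and *ID3*, inhibitors of E proteins that BMP signaling induces, went the other way in DMSO, from 76.8 to 26.5 CPM and from 49.5 to 18.8 CPM. With the inhibitors they stood at 108 and 121 CPM and at 98.4 and 92.8 CPM, closer to the DMSO level of 24 h than to that of 48 h. With DMSO at 24 h as the denominator, 1530 of the 1857 genes called higher and 590 of the 856 called lower passed the limit again. Of the named genes called, 53 higher and 30 lower kept the call against that library, and 6 and 7 lost it. Those that lost it were *AL365357.1*, *ID1*, *ID3*, *CEBPB*, *ADM* and *CD22* among the higher and *AJUBA*, *STC2*, *VLDLR*, *SIGLEC15*, *MPO*, *CD34* and *HOXB2* among the lower. For *MPO*, *CD34* and *HOXB2* both ratios stayed below 0, at -0.93 and -1.67, -0.90 and -1.37 and -0.92 and -1.87. *PHGDH* had 68.2 CPM with DMSO at 24 h, and its log2 ratios against that library were -2.83 and -4.90.

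**Figure D5:**
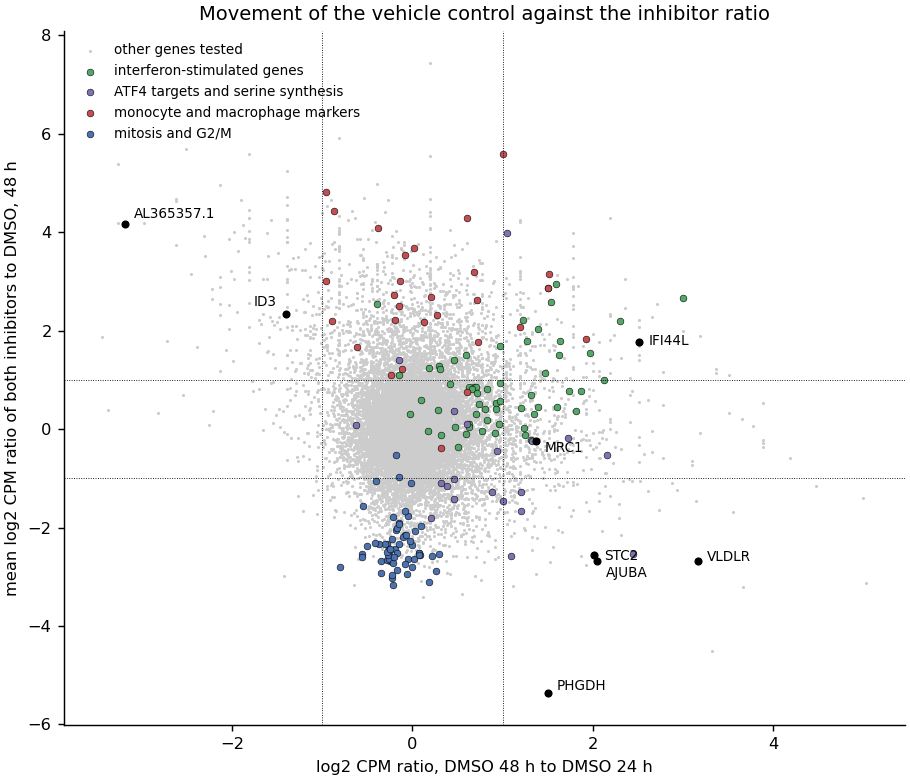
Log2 CPM ratio of DMSO at 48 h to DMSO at 24 h (x axis) against the mean log2 ratio of the inhibitors to DMSO at 48 h (y axis), 1 point per gene tested, with 4 gene lists in color and some named genes in black. Most genes lie near 0 on the x axis, with 692 at or above 1 and 238 at or below -1; the DMSO library at 48 h enters both axes with opposite sign.

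Set side by side, olaparib at 10 µM gave 2007 genes at least 1 log2 higher than DMSO and 1043 lower at 48 h, and talazoparib at 1 µM gave 2797 and 2192. The doses differ and each was sequenced once, so the compounds were not compared. A gene could also pass the limit in opposite directions, and this was the case for 7 genes, of which none reached 10 CPM on average. They were named after their values were seen. *FP565260.3*, *LINC01001*, *GOLGA8O* and *AP001107.1* were higher with olaparib and lower with talazoparib, and *SMG1P1*, *AC006504.1* and *LINC01635* the reverse. *FP565260.3* had the most reads of these, with 117, 325 and 19 counts with DMSO, olaparib and talazoparib.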

How the data were processed

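The deposited values are raw read counts per gene, made by the authors from poly(A)-selected stranded mRNA libraries. The submitters' processing notes name STAR, featureCounts, Picard and the build GRCh38 (hg38). Counting strand and annotation release are not given in the sources used here. TPM values deposited by the authors were not used for any result.

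Genes were kept where 2 or more of the 3 libraries at 48 h held 10 counts. Ratios used TMM-scaled CPM, with 0 counts set to a floor of 3. Intervals are Clopper-Pearson (95%). edgeR 4.0.16 (quasi-likelihood, R 4.3.3) used 9 libraries in 6 groups with 3 residual degrees of freedom, and tests were adjusted by Benjamini-Hochberg. It was tested on simulated data. All 3 residual degrees of freedom come from olaparib against talazoparib at the same time, so p-values rest on the spread between compounds and doses. The labels do not say whether the libraries came from separate cultures, so the spread between cultures may not be covered. DESeq2 1.42.0, other scalings, filters, denominators and left-out libraries served as alternatives. Named genes comprise the 10 largest shifts per direction at a mean of at least 10 CPM, the 5 largest DMSO shifts per direction and the extremes of 35 gene lists. Members and lists were chosen with earlier results of these data known. Some genes and the EVI1 knockdown samples were not analysed here.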

Additional observations from a re-analysis of the deposited data

Results flagged for a closer look

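Of the 166 genes chosen by the naming rule, 36 are given here because the log2 effect of PARP inhibition at 48 h differed from its mean at 12 h and 24 h by the interaction test of edgeR (adjusted p under 0.05). Over all genes, 1.29% were positive and 0.464% negative, but named genes were partly chosen for large shifts at 48 h, which the interaction also reads. The difference was positive for 22 genes and negative for 14. Phagocyte genes had positive values in log2 units: *CD14* (3.45), *ACP5* (3.42), *MMP9* (3.06), *FPR1* (2.93), *LILRA5* (2.75), *TLR8* (2.27) and *NCF1* (1.77). For *HMOX1* (3.80), also positive, the untreated library stood at 31.9 CPM. The regulators *ID1* (2.14), *ID2* (2.74), *ID3* (2.24), *TFEB* (1.63) and *MXD1* (1.61) were also positive, as were *AL365357.1* (4.29), *CCR3* (2.75), *NUPR1* (2.64), *HIST1H2AC* (2.26), *IFI27* (2.07), *KRT16* (2.0), *KRT17* (1.58), *BCL2A1* (1.67) and *CDKN1C* (1.52). In DMSO, the log2 ratio of 48 h to 24 h was -3.19 for *AL365357.1*, -1.54 for *ID1* and -1.40 for *ID3*. It was -0.96 for *CD14*, -0.93 for *ID2*, -0.87 for *ACP5*, -0.73 for *NCF1* and -0.67 for *MMP9*. *TFEB*, *CCR3*, *FPR1*, *HMOX1* and *LILRA5* had values from -0.58 to -0.19. The ratio was above 0 for *IFI27* (1.60), *NUPR1* (1.04), *HIST1H2AC* (0.67), *KRT16* (0.41), *TLR8*, *BCL2A1*, *KRT17*, *CDKN1C* and *MXD1*. The part of any of these shifts in the interaction was not tested.

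Negative values were found for the metabolic genes *PHGDH* (-4.19), *SCD* (-2.47), *GPT2* (-2.40), *BCAT1* (-2.11), *FADS2* (-1.61), *ALDOC* (-1.62), *SLC7A11* (-1.08) and *VLDLR* (-3.40), the progenitor genes *CD34* (-1.5) and *HLF* (-1.82), and *AJUBA* (-2.70), *STC2* (-2.62), *ENC1* (-1.55) and *SIGLEC15* (-1.27). The log2 ratio of DMSO at 48 h to DMSO at 24 h was 1.5 for *PHGDH*, 3.16 for *VLDLR*, 2.33 for *ALDOC*, 2.16 for *SLC7A11*, 2.04 for *AJUBA*, 2.01 for *STC2*, 1.12 for *SCD*, 1.09 for *GPT2* and 0.94 for *SIGLEC15*. The part of these shifts in the values was not tested.

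For 7 genes of low level, the inhibitors stood on opposite sides of DMSO at 48 h, each by at least 1 log2. The log2 ratio with talazoparib minus that with olaparib was -3.92 for *FP565260.3*, -3.57 for *LINC01001*, -3.36 for *GOLGA8O*, -2.48 for *AP001107.1*, 2.10 for *SMG1P1*, 2.77 for *AC006504.1* and 2.92 for *LINC01635*. These differences rest on 1 library each and were not tested.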

How the results depend on the processing

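The precision of every ratio is limited by 1 library per condition, and low counts widen it. With library totals, 1354 genes were called lower, with no filter on low counts 1473, and 1036 genes were called higher and 436 lower where the whole 95% counting interval lay beyond 1 log2. Of the DMSO shifts between 24 h and 48 h, 1671 were upward and 929 downward with no filter, and against DMSO at 12 h these were 1071 and 478. The interaction gave 954 positive and 626 negative genes with DESeq2, 1332 and 1330 with no filter, and 166 negative with library totals. Leaving out the talazoparib or the olaparib library at 48 h gave 593 to 2178 positive and 583 to 2530 negative interactions, and 2657 to 3993 higher and 2740 to 4047 lower genes at 48 h by edgeR. The cause was not tested. Of the ratios of named genes past 1 log2 that turned positive, that of *VLDLR* with talazoparib was 0.99 and that of *ALDOC* with olaparib 1.15 against DMSO at 24 h, and 0.29 and 0.070 against the mean of the 3 DMSO libraries. Of 332 ratios of any size, 26 changed sign against DMSO at 24 h, among them both of *SLC7A11*, *BATF3*, *MRC1*, *IRF9* and *ALDOC*, 18 against the mean of the 3 libraries and 13 with library totals. Over all alternatives, 993 values of named genes stayed within their counting intervals, 663 moved and 4 reversed. Of the 332 ratios, 329 stayed with DESeq2's size factors and 332 with a prior count of 2. Only 99 stayed against DMSO at 24 h, 116 with library totals and 117 against the mean of the 3 DMSO libraries. Medians of the lists moved by up to 0.25 log2 in 131 cases and by more in 79. No paired analysis was possible because each condition has 1 library and the labels give no shared culture.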

Other observations

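By gene class, 1320 of 12515 protein coding genes were called higher (10.55%) and 664 lower (5.31%) at 48 h. Over all genes these shares were 11.3% and 5.23%. Among 1629 pseudogenes, 217 were called higher (13.3%) and 45 lower (2.76%). Among 2020 long noncoding and other genes, the numbers were 278 (13.8%) and 137 (6.78%). Small RNA genes numbered 55, with 14 called higher (25.45%) and 1 lower (1.82%).

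*RN7SL1*, the RNA of the signal recognition particle, lacks a poly(A) tail and had 254, 3516 and 7731 counts with DMSO, olaparib and talazoparib at 48 h. At 24 h it had 421, 632 and 1936 counts, and at 12 h 265, 195 and 357. The 10 genes with the most counts took 8.57%, 9.53% and 9.91% of all counts at 48 h.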
